A study of Homo sapiens with 36 samples.

Results

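Cytosolic ribosomal protein genes encode the proteins of the small and large subunits of the ribosome in the cytoplasm. They were taken as the protein-coding genes of GENCODE whose symbols are RPL or RPS followed by a number, with an optional A, X, Y or L suffix, together with RPLP0, RPLP1, RPLP2 and RPSA. The RPS6K kinases were left out. The rule gave 87 genes of 20033 protein-coding genes. Of these, 77 are referred to as core genes. They comprise 31 genes of the small subunit, 43 of the large subunit and the 3 genes of the acidic stalk, RPLP0, RPLP1 and RPLP2. The other 10 are paralogs of core genes, namely RPL3L, RPL7L1, RPL10L, RPL22L1, RPL26L1, RPL36AL, RPL39L, RPS4Y1, RPS4Y2 and RPS27L. The rule used the symbols alone, and no peak decided which genes entered.

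Chromatin immunoprecipitation followed by sequencing (ChIP-seq) had been performed in A549, a human lung adenocarcinoma line, and in BEAS-2B (B2B), a human bronchial epithelial line that was immortalized and is not cancerous. No treatment, genetic change or time point is named for either line, and each line is a single established culture model. The 36 samples fall into 18 groups of 2 replicates, of which 4 samples are input chromatin. The authors merged the replicates before peaks were called, which left 16 peak lists, 7 in A549 and 9 in B2B, each without replicate error. No test over samples was therefore possible, and the 95% intervals below (Wilson for shares, Newcombe's paired interval for differences) cover counting error over genes only.

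Read numbers are not known for any of the lists. The lists held from 8563 peaks (B2B JunB) to 61225 peaks (B2B CTCF). In 4 lists the peaks ended part of the way through the genome: A549 H3K27ac on chromosome 13, both Med1 lists on chromosome 15 and A549 pol II on chromosome 20. A list was used only on chromosomes that it covers whole, so that 48 ribosomal protein genes, those on chromosomes 1 to 12, were covered by all 16 lists. A gene counted as having a promoter peak if a peak overlapped the window within 1 kb of any annotated start. The epithelial markers KRT8, KRT18, EPCAM and CDH1 had an H3K4me3 promoter peak in both lines, and so did the mesenchymal marker VIM. The blood marker PTPRC, the basal airway keratins KRT5 and KRT14 and the alveolar genes SFTPA1, SFTPB and NAPSA had none in either, while SFTPC and TP63 had a peak in A549 alone and NKX2-1 in both.

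Ribosomal protein genes are among the most heavily transcribed genes of dividing cells, since every new ribosome needs each protein in nearly equal amounts. Their transcripts are known as TOP mRNAs. They begin with a cytosine followed by an unbroken run of pyrimidines, the 5′ terminal oligopyrimidine tract, through which their translation is controlled by nutrient and growth signalling. Active promoters carry pol II and trimethylated histone H3 (H3K4me3), while acetylated histone H3 (H3K27ac) and the Mediator subunit Med1 are found at enhancers as well. The Jun family, here JunB, Jun and JunD, supplies subunits of AP-1, a factor of growth and stress signalling that was compared between the cancer and bronchial lines in this study. CTCF and Rad21, a subunit of cohesin, organize chromatin loops and mark insulators.

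The sequences around the starts of named genes were examined first, since they show the feature that gives these transcripts their name. Each line gives 40 bases before the annotated start and 20 bases from it, 5′ to 3′ on the strand of the gene, from RefSeq promoters of GRCh38.p14. Capitals mark the unbroken pyrimidine run that begins with C at the start itself, and a line without capitals has no such run. RPS6 (chr9:19380217-19380276, minus strand) encodes the small subunit protein that is phosphorylated upon growth signals. RPS19 (chr19:41860215-41860274, plus strand) is a small subunit gene mutated in Diamond-Blackfan anaemia. RPLP1 (chr15:69452778-69452837, plus strand) and RPLP2 (chr11:809927-809986, plus strand) encode stalk proteins. RPL39 (chrX:119791611-119791670, minus strand) had the longest run, and RPL24 (chr3:101686699-101686758, minus strand) is described further for its Jun-family peaks. RPL11 (chr1:23691739-23691798, plus strand), whose protein binds MDM2 under ribosomal stress, had no run at its RefSeq start. That start lay at -27 bp from the canonical GENCODE start of RPL11. RPS27L (chr15:63157458-63157517, minus strand) and RPL10L (chr14:46651762-46651821, minus strand) are paralogs without a run.
RPS6: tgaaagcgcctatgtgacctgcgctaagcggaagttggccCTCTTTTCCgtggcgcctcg
RPS19: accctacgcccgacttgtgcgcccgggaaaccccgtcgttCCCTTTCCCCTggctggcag
RPLP1: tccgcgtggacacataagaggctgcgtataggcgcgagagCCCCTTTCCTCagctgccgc
RPLP2: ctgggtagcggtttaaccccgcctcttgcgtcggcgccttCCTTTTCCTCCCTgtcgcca
RPL39: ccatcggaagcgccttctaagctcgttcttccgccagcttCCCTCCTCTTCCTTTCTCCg
RPL24: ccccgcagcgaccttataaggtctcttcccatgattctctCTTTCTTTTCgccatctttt
RPL11: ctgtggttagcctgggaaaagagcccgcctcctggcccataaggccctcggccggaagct
RPS27L: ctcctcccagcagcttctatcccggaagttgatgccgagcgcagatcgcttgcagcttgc
RPL10L: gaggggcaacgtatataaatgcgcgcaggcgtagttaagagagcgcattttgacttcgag

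A promoter sequence was matched for 70 of the 87 genes, and its start was the canonical GENCODE start in 62 of the 70. A TOP-like start was defined as C at the start followed by at least 4 pyrimidines. It was present in 44 of the 70 promoters (62.9%), against 714 of 15345 promoters of protein-coding genes (4.65%). All 44 were among the 62 with the canonical start, and no promoter with another start, such as that of RPL11, had it. Among the core genes 42 of 62 (67.7%) had it, and among the paralogs 2 of 8, RPL22L1 and RPS4Y1. The runs of the 44 genes ranged from 5 to 19 bases with a median of 8.0. When such a tract was allowed anywhere within 20 bp of the start, 63 of the 70 promoters (90%) had it, against 50.4% of all promoters, so that the wider rule separated the genes less from the rest. The genes of the mitochondrial ribosome, which are named MRPL or MRPS and serve the other ribosome of the cell, had a TOP-like start in 5 of 69 promoters (7.25%).

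Further motifs were searched on both strands between 250 bases before and 50 bases after the start. The ETS motif CCGGAAG was found in 23 of the 70 promoters (32.9%), against 14.4% of all promoters and 42% of those of the mitochondrial ribosome. TCTCGCGA was found in 11 (15.7%, against 1.8%), among them RPS6, RPS19, RPL4 and RPL12. The YY1 motif AAGATGGC was found in 7 (10%, against 3.97%), including RPL24 and RPL13A. TATAAA was found in 7 promoters (10%), close to the 9.63% of all promoters, and the GC box GGGCGG in 37 (52.9%, against 59.2%). CCAAT was found in 32.9% against 36.6%. The CRE TGACGTCA was found in 4.29% against 2.64%, the E-box CACGTG in 5.71% against 8.89% and the NRF1 motif GCGCATGC in 4.29% against 4.25%. The AP-1 motif, TGAGTCA or TGACTCA, was found in a single promoter (1.43%), against 3.68% of all promoters. These matches describe letters in a window and not binding.

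The core genes carried the marks of active promoters in both lines without an exception among the genes covered (the map of strongest promoter peaks). Pol II peaks lay at 78 of 79 ribosomal protein genes in A549 (98.7%, 95% CI 93.2 to 99.8%), where 67.6% of all protein-coding genes had a peak. In B2B the count was 84 of 87 (96.6%, 95% CI 90.4 to 98.8%), where 49.2% of all genes had a peak. H3K4me3 peaks lay at 84 of 87 genes in each line (96.6%), against 72% of all genes in A549 and 61.5% in B2B. H3K27ac peaks lay at 48 of 48 genes in A549 and 84 of 87 in B2B, against 71.6% and 63.2% of all genes. Med1 peaks lay at 51 of 52 genes in each line (98.1%, 95% CI 89.9 to 99.7%), against 53.2% of all genes in A549 and 59.5% in B2B. The genes without a peak in these lists were RPL3L, RPL10L and RPS4Y2, and RPL10L was the gene of the 52 that lacked Med1. RPL3L had a pol II peak in A549 alone, with a fold enrichment of 5.17, placed -3031 bp from its canonical start. This peak accounts for the difference of 1.27 percentage points in pol II between the lines (95% CI -3.20 to 6.82), and the other 3 marks differed by 0.

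**Figure D1:**
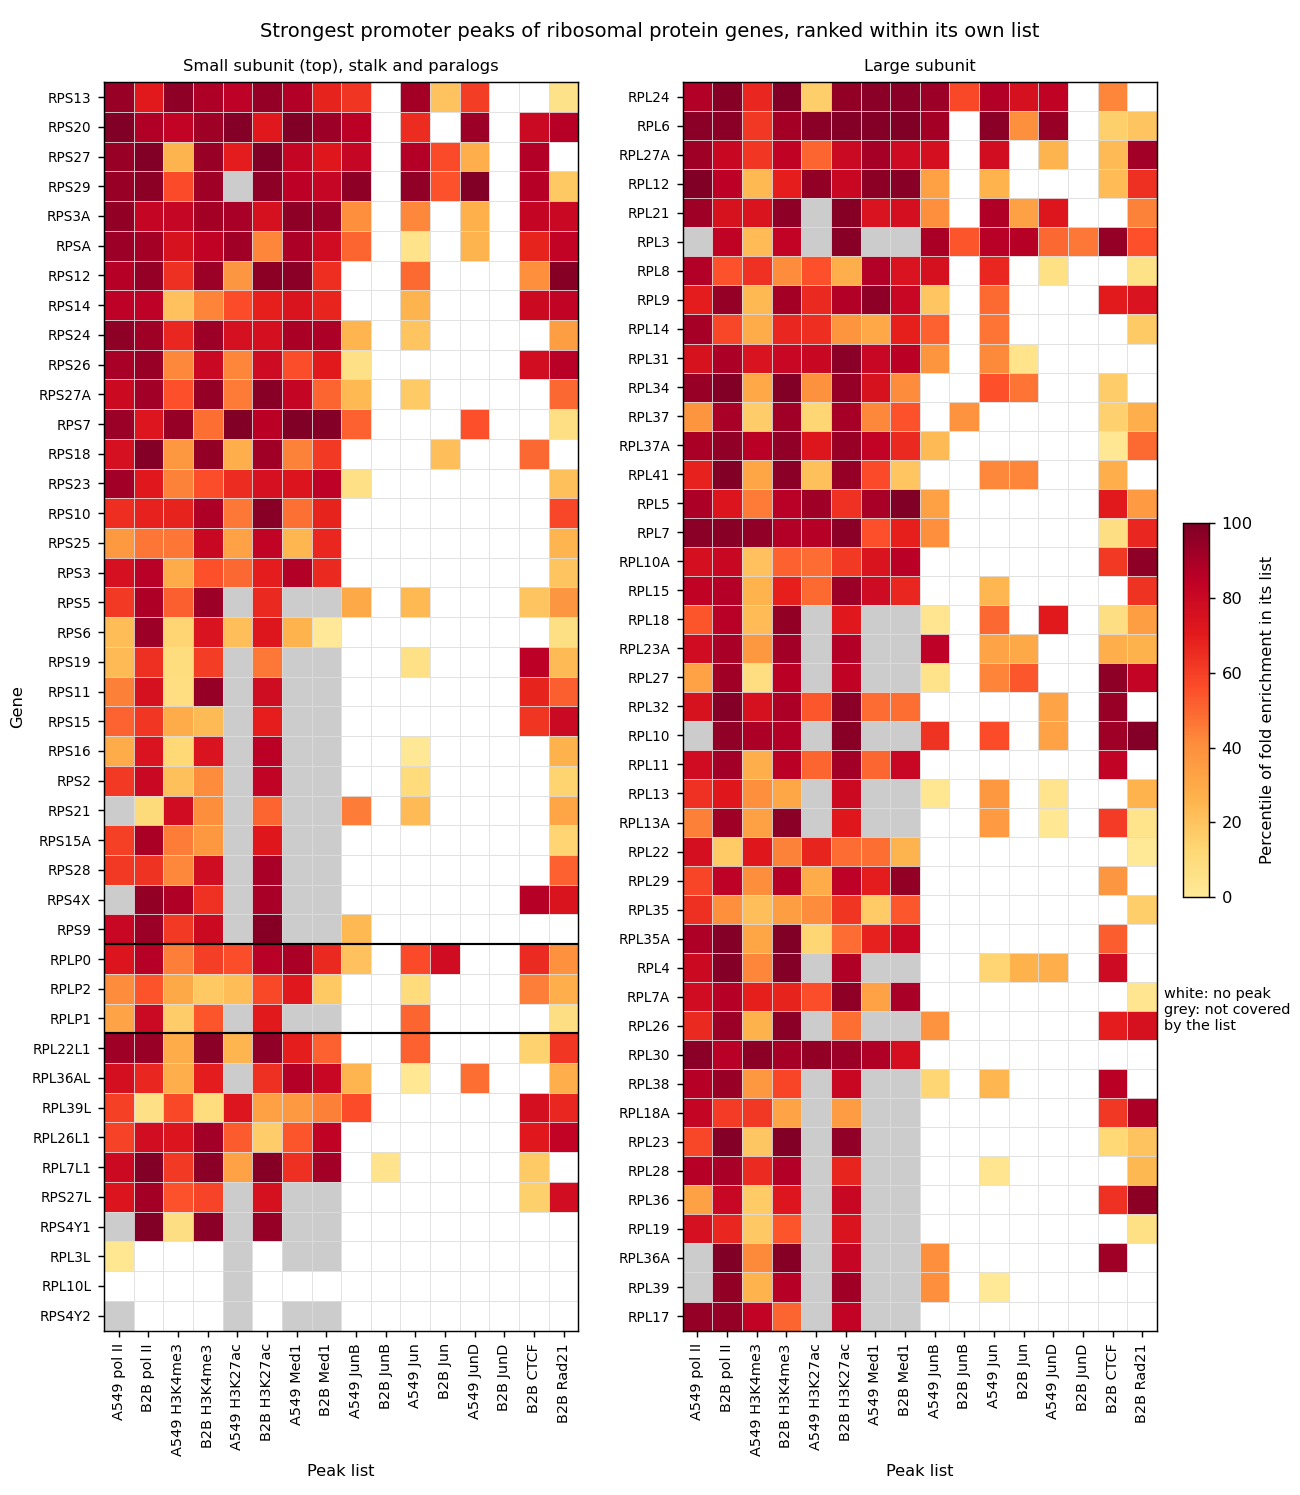
Strongest promoter peaks of 85 of the 87 ribosomal protein genes (rows) in the 16 peak lists (columns), coloured by the percentile of its fold enrichment among all protein-coding genes with a promoter peak in the same list; white means no peak and grey means that the list does not cover the chromosome. The columns of pol II, H3K4me3, H3K27ac and Med1 are filled for every core gene covered, the A549 Jun-family columns are filled in part, and the B2B JunB and JunD columns hold 4 genes and 1 gene.

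Because most housekeeping promoters carry these marks, the genes were also set beside the 11875 other protein-coding genes with an H3K4me3 promoter peak in both lines, called marked genes below. Among the marked genes, pol II peaks were called in 96.9% in A549 and 79% in B2B. Med1 peaks were called in 81.7% in A549 and 91.2% in B2B, and H3K27ac peaks in 98.6% and 96.2%. The widest of these gaps was that of pol II in B2B, where all 77 core genes (95% CI 95.3 to 100%) had a peak. Genes of the mitochondrial ribosome had B2B pol II peaks in 69 of 78 cases (88.5%).

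**Figure D2:**
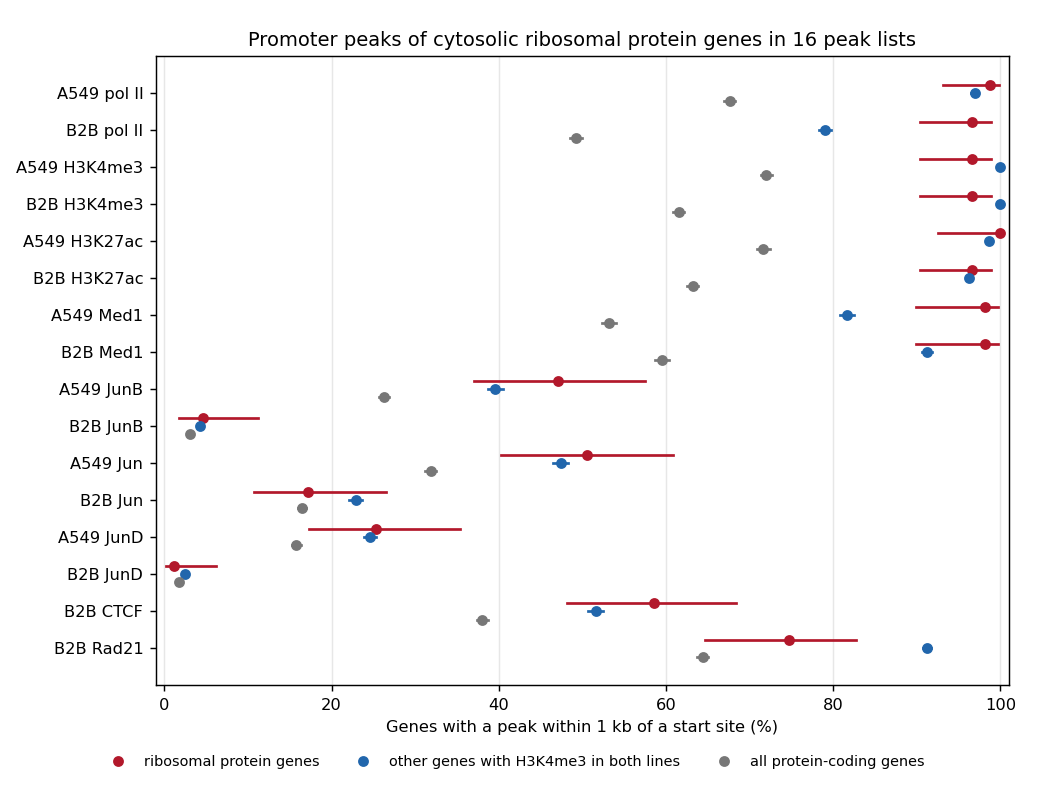
Share of genes with a peak within 1 kb of a start site (x axis, percent) in each of the 16 peak lists (y axis), for the ribosomal protein genes, the other genes with H3K4me3 in both lines and all protein-coding genes; lines are Wilson 95% intervals for counting error. Ribosomal protein genes stood at 96.6% or above for pol II, H3K4me3, H3K27ac and Med1, and at 74.7% for Rad21, where the other marked genes stood at 91.2%.

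The strength of the peaks was read as a rank, since fold enrichments of different lists are not comparable. The percentile of a peak is its place among all protein-coding genes with a promoter peak in the same list. In B2B the median core gene ranked at the 88.4 percentile for pol II, 84.3 for H3K4me3 and 83.7 for H3K27ac. In A549 the corresponding medians were 78.4 for pol II, 42.3 for H3K4me3 and 54.7 for H3K27ac. The Med1 medians were 80.4 in A549 and 73.2 in B2B. The median marked gene ranked between 49.7 and 56.9 in these 8 lists. In A549 the H3K4me3 peaks of the core genes thus ranked below the middle by fold, but they were wide, with a median of 3229 bp against 2300 bp in the marked genes. In B2B they measured 1489 bp against 978 bp.

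Local background differed between the lines and enters each fold enrichment. It was solved from the deposited fold and p-value of each peak under the Poisson model of the caller, as reads plus 1. At the pol II peaks of the core genes the median was 21.6 in B2B and 3.83 in A549. At the marked genes it was 29.4 in B2B and 3.48 in A549. For H3K4me3 in B2B the core genes had 18.5 and the marked genes 31.9, and for H3K27ac 18.96 and 28.6. For Med1 the medians of core and marked genes lay between 3.001 and 3.18 in both lines, and the core genes ranked at 80.4 and 73.2. The part of the background in the high B2B ranks of pol II, H3K4me3 and H3K27ac was not tested.

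Single genes differed widely within this common pattern. The strongest pol II peaks in A549 were at RPS20 (fold 120.3), RPL12 (116.1) and RPL30 (104.4), which lay at or above the 97.3 percentile. The strongest in B2B were at RPL36A (39.5), RPS27 (34.5) and RPS4Y1 (34.1). RPS20, a small subunit gene, ranked at 99.9 in A549 and 88.4 in B2B, whereas RPS6 ranked at 22.5 in A549 and 92.7 in B2B. Across the 71 core genes covered in both lines, Spearman's rho of the pol II folds was 0.250 as a description, close to the 0.236 of 8471 marked genes with both peaks. For Med1 it was 0.551 over 46 core genes and 0.626 over 6476 marked genes. For H3K27ac it was 0.005 over 44 core genes and 0.201 over 7216 marked genes, and for H3K4me3 0.087 over 77 and -0.017 over 11875.

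The leading genes of the histone marks were others. For H3K4me3 the highest folds in A549 were those of RPL30 (50.8), RPS13 (50.04) and RPL7 (49.9), and those in B2B were of RPL35A (25.4), RPL24 (23.4) and RPL23 (23.02). The RPL7 summit lay upstream at -1571 bp, and RDH10 has a start within 1 kb of a start of RPL7. For H3K27ac they were RPS7 (138.8), RPS20 (133.1) and RPL6 (121.2) in A549, and RPS27 (28.7), RPL6 (20.6) and RPL21 (19.9) in B2B. Med1 was strongest at RPS7 (57.7) and RPS20 (48.7) in A549 and at RPL5 (45.8) and RPL6 (35.8) in B2B. RPL5 encodes, like RPL11, a protein that binds MDM2 when ribosome assembly is disturbed. The A549 H3K27ac and the B2B Med1 peak of RPL6 lay at -9478 and -9294 bp, at an annotated RPL6 start that is shared with PTPN11. In all, 25 of the 87 genes have another protein-coding start within 1 kb, and a peak there cannot be assigned to either gene.

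Of the genes most studied for their links to disease and signalling, RPS6, RPS19, RPLP1 and RPLP2 ranked low for pol II in A549. They lay below the middle of the protein-coding genes with a pol II promoter peak there, which were 67.6% of all genes. RPS19 had pol II folds of 22.9 in A549 and 5.74 in B2B, at the 23.6 and 64.4 percentiles. RPS6 had the lowest A549 pol II fold of the core genes (21.99) and the lowest B2B Med1 fold (2.87). RPLP0, RPLP1 and RPLP2 stood at 73.4, 32.4 and 41.2 percentiles for pol II in A549, and at 86.8, 80.2 and 54.7 in B2B. RPSA, which encodes a small subunit protein also described as a laminin receptor, stood at 93.1 and 91.1. RPL5 stood at 89 and 73.6, RPL11 at 78.1 and 91.3, RPL23 at 58.1 and 98.8, and RPS7 at 93.5 and 72.9. RPL23 and RPL5 thus changed places between the lines, while RPSA ranked high in both.

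The peaks followed a common order along the promoter. The median summit of the core genes lay 25 bp downstream of the canonical start for pol II in A549 and 32 bp downstream in B2B. In A549, 61 of 71 pol II summits lay within 100 bp of the start, and in B2B 69 of 77. Med1 summits had medians of -44.5 bp in A549 and -19.5 bp in B2B. H3K4me3 summits lay downstream at medians of 200 and 209 bp, and H3K27ac summits at 208.5 and 199 bp. Of the H3K4me3 summits in B2B, 60 lay downstream of the start, 17 upstream and 0 within 100 bp. Upstream of the start lay the A549 Jun (median -112.5 bp), JunB (-75 bp) and JunD (-90 bp) summits, the B2B Jun summits (-89 bp), CTCF (-103 bp) and Rad21 (-70 bp). In A549, 36 of 42 Jun summits were upstream. The marked genes showed the same order for pol II (20 and 37.5 bp), H3K4me3 (182 and 175 bp) and A549 Jun (-71 bp). They differed for B2B Jun, where their median summit lay downstream at 1032 bp, with 1667 of 2716 summits downstream. A peak counted at any annotated start, but distances were taken from the canonical one. The marked genes are also longer, with a median of 36575 bp against 5332 bp in the core genes. The part of this in the difference was not tested.

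**Figure D3:**
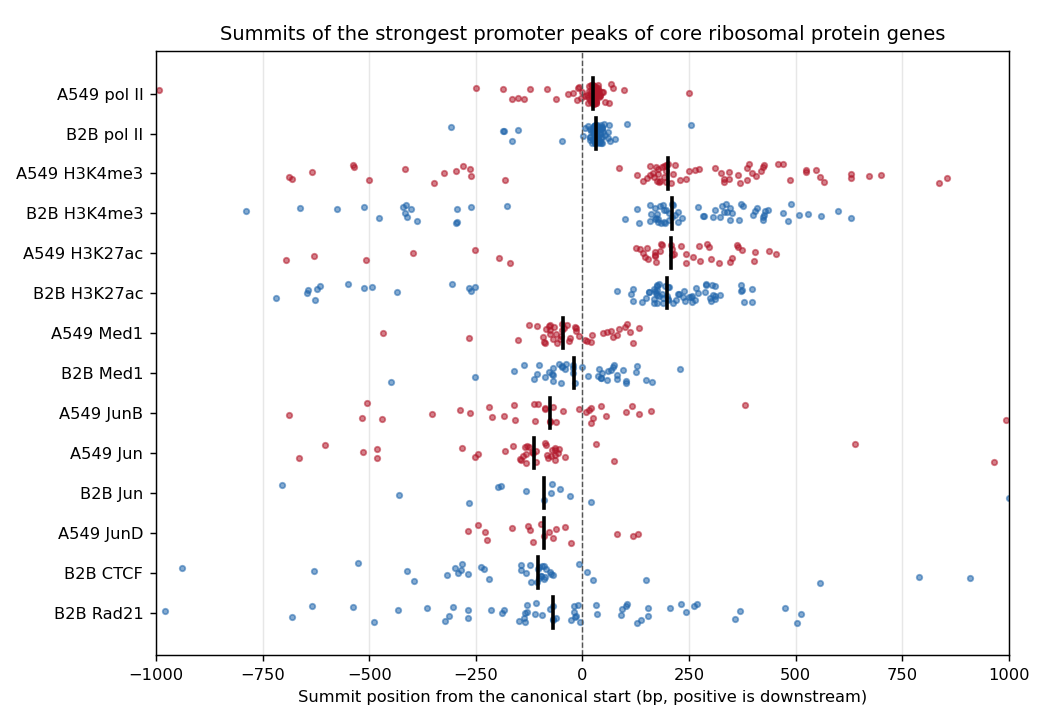
Position of the summit of the strongest promoter peak of each core gene, in bp from the canonical start (x axis, positive is downstream, cut at 1000 bp to each side), for the 14 lists with more than 4 peaks at these genes (A549 in red, B2B in blue); black bars are medians over all summits, also those beyond the axis. Pol II summits gathered at 25 and 32 bp, histone marks had a gap around the start, and the Jun-family, CTCF and Rad21 medians lay upstream.

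Pol II peaks extended over most of the gene body in A549. The share of the gene body under pol II peaks had a median of 86.6% over 71 core genes in A549, with a range from 12.3% (RPL37A) to 100%. The median was 15.9% over 77 core genes in B2B, with RPL41 highest at 88.5%. In A549 the peaks covered at least 50% of the body in 56 core genes and at least 90% in 32, while in B2B 5 genes reached 50%. The core genes are short, with a median length of 5332 bp against 36575 bp in the marked genes, where the medians were 2.89% and 0.982%. The comparison was therefore repeated among genes of 3710 to 9912 bp, the quartiles of core gene length. There 33 of 36 core genes were covered over at least 50% in A549 (91.7%, median cover 91.8%), against 184 of 1293 marked genes (14.2%, median 14.5%). In B2B the medians were 16.2% and 3.85%. The difference between the lines stands beside the difference in local background given above, and beside 45938 pol II peaks in A549 and 25234 in B2B. The part of either in it was not tested.

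**Figure D4:**
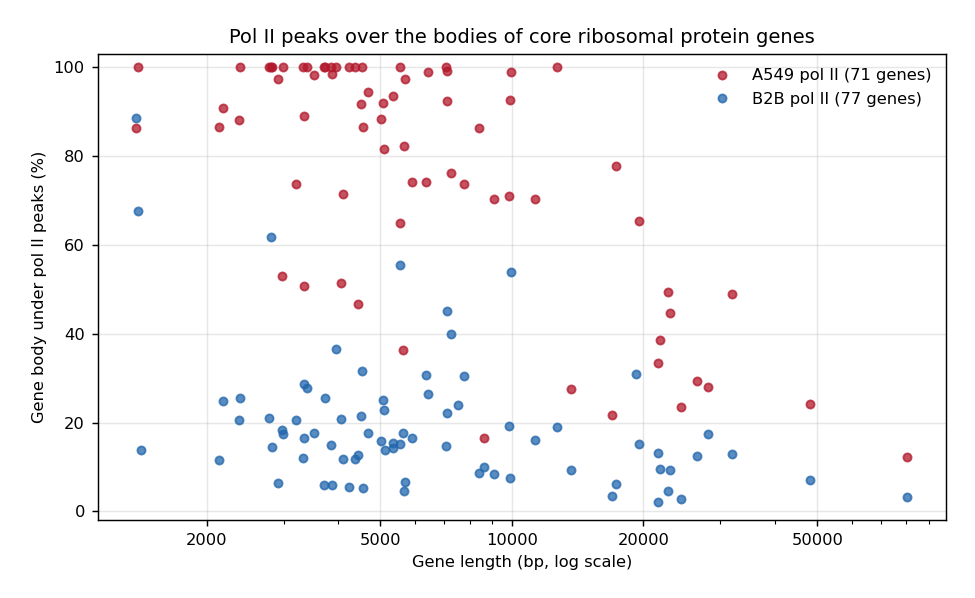
Share of the gene body under pol II peaks (y axis, percent) against gene length (x axis, bp, log scale) for core ribosomal protein genes, 71 in A549 (red) and 77 in B2B (blue); each point is a gene. The A549 points had a median of 86.6% and fell with length, and the B2B points had a median of 15.9%.

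Jun-family peaks were found at part of the ribosomal protein promoters in A549 and at few in B2B. JunB was called at 41 of 87 genes in A549 (47.1%, 95% CI 36.98 to 57.5%), where 26.3% of all genes had a peak, and at 4 in B2B (4.6%, 95% CI 1.80 to 11.2%), where 3.02% of all genes had one. Jun was called at 44 genes in A549 (50.6%, 95% CI 40.3 to 60.8%, all genes 31.9%) and at 15 in B2B (17.2%, 95% CI 10.7 to 26.5%, all genes 16.5%). JunD was called at 22 genes in A549 (25.3%, 95% CI 17.3 to 35.3%, all genes 15.8%) and at 1 in B2B (1.15%, 95% CI 0.203 to 6.23%, all genes 1.75%). The B2B shares were thus close to those of all genes. In A549 the marked genes had 39.6% for JunB, 47.4% for Jun and 24.6% for JunD. Each interval of the 87 ribosomal protein genes held the value of the marked genes. The 77 core genes, all with H3K4me3 in both lines, had JunB at 50.6%. Their JunB interval, 39.72 to 61.52%, lay just above the value of the marked genes. The core genes had Jun at 54.5% (95% CI 43.5 to 65.2%) and JunD at 27.3% (18.6 to 38.1%), and these intervals held it. All 3 proteins were called together at 17 of the 87 genes in A549 (19.5%), against 11.6% of all genes and 18.2% of the marked genes, and at 1 gene in B2B, where 1.43% of all genes had them. At least 1 of the 3 was called at 56 genes in A549 (64.4%), against 37.7% of all genes and 56.1% of the marked genes. Among the core genes alone at least 1 was called at 53 (68.8%). In B2B at least 1 was called at 17 of the 87 genes (19.5%), against 16.5% of all genes and 22.9% of the marked genes.

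The difference between the lines was largest for JunB, but it depended on the length of the lists. The share bound was 42.5 percentage points higher in A549 for JunB (95% CI 30.5 to 53.3), 33.3 points for Jun (22.5 to 43.1) and 24.1 points for JunD (15.5 to 34.1). JunB was called in both lines at 2 genes, in A549 alone at 39, in B2B alone at 2 and in neither at 44. Over all 20033 protein-coding genes the same counts were 498, 4771, 107 and 14657. Calls in A549 alone thus outnumbered shared calls among genes in general as well. The A549 JunB list held 28068 peaks and the B2B list 8563. With the A549 list kept to its 8563 most significant peaks, 8 genes remained in A549 (9.2%), and the difference fell to 4.598 points, an interval of -2.15 to 12.1 that includes 0. The 8 genes were RPL3, RPL6, RPL8, RPL23A, RPL24, RPS20, RPS27 and RPS29. The difference of Jun stayed at 33.3 points at 35602 peaks in each line, although B2B had the longer list, and that of JunD was 22.99 points at 8597 peaks (14.6 to 32.8). In the marked genes the JunB difference fell from 35.3 to 5.50 points and the JunD difference from 22.1 to 18.9, while the Jun difference was 24.5 points with all peaks and 27.6 at equal length.

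**Figure D5:**
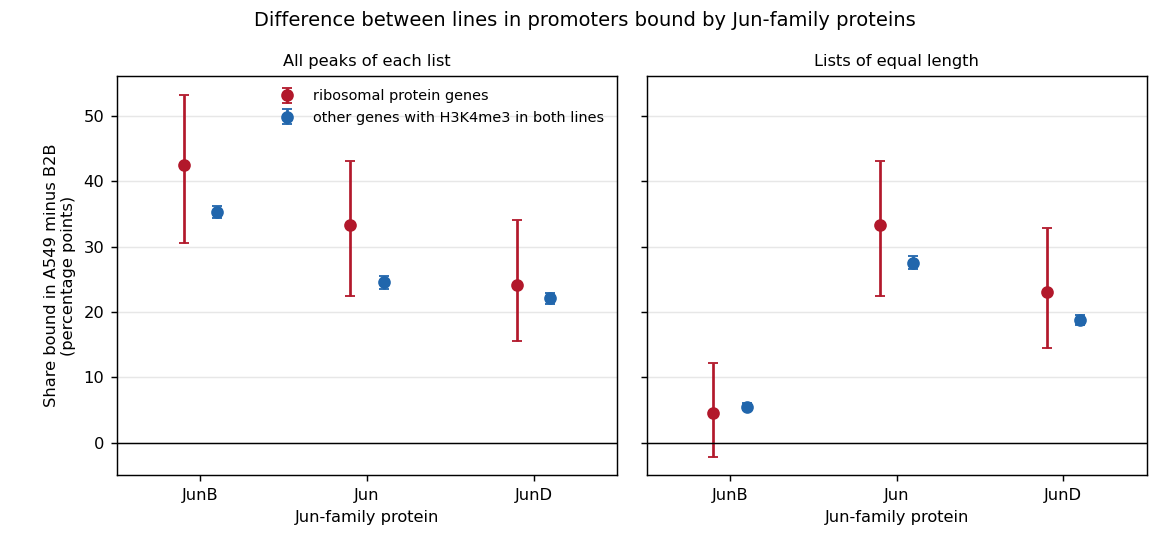
Difference in the share of promoters bound, A549 minus B2B, in percentage points (y axis) for JunB, Jun and JunD (x axis), with all peaks (left) and with the longer list of each pair kept to the length of the shorter (right); points are the ribosomal protein genes (red) and the other genes with H3K4me3 in both lines (blue), and bars are paired 95% intervals for counting error. The JunB difference fell from 42.5 to 4.598 points at equal length, while that of Jun was 33.3 points in both panels.

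Members of both subunits were bound in A549. JunB was called at 16 of 31 core genes of the small subunit (51.6%) and at 23 of 46 of the large subunit with the stalk (50%), and Jun at 16 (51.6%) and 26 (56.5%). The small subunit genes called by all 3 proteins in A549 included RPS3A, RPS13, RPS20, RPS27, RPS29 and RPSA. The highest JunB folds in A549 were at RPS29 (22.96), RPL24 (17.9) and RPL6 (16.4), and the highest Jun folds at RPL6 (44.7), RPS29 (37.2) and RPS13 (26.2). For JunD they were at RPS29 (15.8), RPL6 (9.38) and RPS20 (9.04). The RPS29 summits of the 3 proteins lay at -158, -181 and -165 bp, while the RPL6 summits lay at -9905, -9877 and -9861 bp, at the start shared with PTPN11.

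In B2B the Jun peaks were highest at RPL3 (18.7), RPLP0 (14.3) and RPL24 (13.3). JunB was called at RPL24 (6.31), RPL3 (6.04), RPL37 (5.17) and the paralog RPL7L1 (2.90), and JunD at RPL3 (5.68). Of the 15 genes with a B2B Jun peak, 14 were also called by Jun in A549, and the exception was RPS18. Most genes with a B2B Jun peak were called in A549 in general. This held for 2434 of 3299 among all protein-coding genes and for 2137 of 2716 marked genes (78.7%). RPL3 alone had peaks of the whole Jun family in A549 and in B2B. In each of the 6 lists a summit lay between 3058 and 3112 bp downstream of the canonical start, near an annotated alternative start. Jun had a further RPL3 peak in both lines, upstream of the canonical start at position 39319623. Its summits lay at 39319800 in A549 and 39319754 in B2B, each with the CRE within 50 bp. RPL24 was bound in 5 of the 6 lists, and B2B JunD was the list without it. Its summits lay between -143 and -228 bp.

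The AP-1 motif was looked for within 50 bp of the summits, where it was rare. It was present in 6 of 48 JunB peaks at ribosomal protein genes in A549 (12.5%), in 5 of 48 Jun peaks (10.4%) and in 2 of 26 JunD peaks (7.69%). The other promoter peaks of these lists had it in 26.2%, 23.1% and 15.9%. In B2B it was present in 4 of 16 Jun peaks (25%), against 38.8% of the other promoter peaks, in 2 of 4 JunB peaks (50%, against 66.4%) and in the single JunD peak. Of the 14 genes with Jun in both lines, 4 had the motif at a summit of either line (RPL3, RPL23A, RPL24 and RPLP0). At RPL24 it lay near the B2B Jun summit only. Of the 30 genes with Jun in A549 alone, 2 had it (RPLP1 and RPS20). The first count could draw on summits of both lists and the second on A549 summits only, so they are not alike. No such share was computed for other genes. The ETS motif CCGGAAG was present in 8 of the 48 Jun peaks in A549 (16.7%), against 5.83% of the other promoter peaks, and the CRE in 4 (8.33%, against 5.48%).

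Motifs under the Jun-family peaks of 5 genes are shown with 30 bases of the plus strand of hg38, with the AP-1 motif in capitals, as examples of genes at which the motif lay within 50 bp of a summit. RPL3 (chr22:39316515-39316544) had its motif in intron 4, 3094 bp from the canonical start, under peaks of all 6 lists. RPL24 (chr3:101686937-101686966) had it at -233 bp, upstream of the canonical transcript, under peaks of 5 lists. RPLP0 (chr12:120200118-120200147) had it in intron 2, 979 bp downstream, under 3 peaks, namely A549 Jun, A549 JunB and B2B Jun. RPL6 (chr12:112408816-112408845) had it in intron 1 under an A549 JunB peak, and RPLP1 (chr15:69453436-69453465) in intron 1 under an A549 Jun peak.
RPL3: agtgttactggTGAGTCAccagttgaattt
RPL24: cagttggtttaTGAGTCAttctgtctctgt
RPLP0: cttccttacaaTGAGTCAttcctgacctca
RPL6: aaccttcactaTGACTCAtttggggtttgt
RPLP1: aaatagccgcgTGACTCAggcaagtcccag

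The 5 printed sites hold TGAGTCA at 3 genes and TGACTCA at the other two. Of these 5, the motif of RPL24 lay nearest to its canonical start, and the next nearest was that of RPLP1 at 632 bp. At RPS20, which is not printed, the A549 JunB and Jun summits with the motif lay closer to the start, at 43 and 74 bp.

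CTCF and Rad21, which were analysed in B2B only, differed from each other. CTCF was called at 51 of 87 genes (58.6%, 95% CI 48.1 to 68.4%), where 38% of all genes and 51.6% of the marked genes had a peak. Rad21 was called at 65 genes (74.7%, 95% CI 64.7 to 82.7%), where 64.4% of all genes and 91.2% of the marked genes (95% CI 90.7 to 91.7%) had a peak. Among the core genes alone Rad21 was called at 60 of 77 (77.9%, 95% CI 67.5 to 85.7%), and among genes of the mitochondrial ribosome at 61 of 78 (78.2%). Of the ribosomal protein genes with CTCF 74.5% also had Rad21, against 92.4% of the marked genes with CTCF. The highest CTCF folds were at RPL27 (33.5) and RPL3 (30.1), where the RPL3 summit lay at 3041 bp beside its Jun-family peaks. The highest Rad21 folds were at RPL10 (26.9) and RPS12 (24.8).

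The 17 core genes without Rad21 included RPL24, RPL36A, RPL41, RPS18, RPS27 and RPL30. Their pol II fold in B2B had a median of 22.8 (quartiles 13.3 to 29.4), against 9.04 (6.52 to 12.1) at the 60 core genes with Rad21. The local background of these pol II peaks differed as well, with medians of 9.33 and 26.9 reads plus 1. For Med1, whose background was 3.18 and 2.99, the median folds were 12.6 and 11.6. The marked genes showed the same direction for pol II, with 7.19 without Rad21 and 4.55 with it. The part of the background in the split was not tested. RPL30 and RPL17 were the core genes without a peak in any of the Jun-family, CTCF and Rad21 lists, although RPL30 ranked at 97.3 for pol II and 96.7 for H3K4me3 in A549.

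Core genes with a Jun-family peak had higher pol II folds than those without. In A549 the median was 86.9 (quartiles 70.9 to 93.5) at 34 genes with JunB and 60.3 (39.4 to 71.9) at 37 without it. With JunD it was 92.2 at 19 genes and 67.7 at 52 without, and with Jun 79.1 at 38 and 67.9 at 33. In B2B the median was 17.1 at 15 genes with Jun and 9.35 at 62 without, with local backgrounds of 11.3 and 24.04 reads plus 1. For JunB the ranges overlapped, from 30.2 to 120.3 with JunB and from 21.99 to 104.4 without. The marked genes showed the same direction, with 62.6 and 38.6 for A549 JunB and 6.06 and 4.37 for B2B Jun. These are descriptions over genes that share the same pooled lists.

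Of the 10 paralogs, 7 had an H3K4me3 peak in each line and 3 had none. RPL22L1, RPL26L1, RPL36AL, RPL39L, RPL7L1 and RPS27L had pol II and H3K4me3 peaks in both lines. RPL22L1 ranked above RPL22 for pol II in B2B, at 93.7 against 17, and in A549, at 92.3 against 76.7. RPL7L1 ranked at 99.2 in B2B where RPL7 ranked at 98.1, but below it in A549, at 79.5 against 96.9. RPL39L had low ranks in B2B, 6.2 for pol II and 8.95 for H3K4me3, where RPL39 had 95.4 and 86.5, but stood at 59.7 for pol II in A549, where RPL39 was not covered. RPL36AL stood at 66.5 for pol II in B2B where RPL36A stood at 99.6, RPS27L at 91.2 where RPS27 stood at 99.4, and RPL26L1 at 77.7 where RPL26 stood at 93.2. In A549, RPL36AL stood at 76.7, with RPL36A not covered, RPS27L at 73.8 against 93.9 for RPS27, and RPL26L1 at 59.3 against 66 for RPL26. RPS4X had pol II, H3K4me3 and H3K27ac peaks in B2B with a pol II fold of 14.99, and RPS4Y1 had them as well. RPL3L, RPL10L and RPS4Y2 had no H3K4me3 peak in either line, while their partners RPL3, RPL10 and RPS4X had one in both. Reads of near-identical copies may have been assigned to either copy, and how such reads were treated is not given in the sources used here. The Jun family was called at 3 of the 10 paralogs in A549 (30%) and at 1, RPL7L1, in B2B (10%), against 37.7% and 16.5% of all genes.

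The bodies of the genes hold further transcribed elements. Small nucleolar RNAs, which guide the modification of ribosomal RNA, lay inside 28 of the 87 genes, 59 in all. RPL4 holds 5 of them, and RPL7A, RPL13A and RPL23A are among the genes that hold 4. Other TOP genes of the translation machinery were taken as a list of 17, which includes the elongation factors EEF1A1 and EEF2, the poly(A)-binding protein PABPC1 and the ribosome-associated RACK1. Jun was called at 15 of them in A549 (88.2%, 95% CI 65.7 to 96.7%), JunB at 12 (70.6%) and JunD at 10 (58.8%), and all 17 had Rad21 and B2B pol II peaks. In B2B, Jun was called at 6, JunB at 1 (PABPC1) and JunD at 0 (95% CI to 18.4%). Among the genes of the mitochondrial ribosome, Jun was called at 31 of 78 in A549 (39.7%) and at 7 in B2B (8.97%). The ribosomal protein genes, at 50.6% and 17.2%, stood between these lists in both lines.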

How the data were processed

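Peak lists of 16 line and target pairs were analysed, each made by the authors from 2 merged replicates. Per the methods and the submitters' processing notes, reads were aligned to hg38 with Bowtie2 2.4.4, duplicates were removed with custom code, replicates were merged and scaled with SAMtools 1.13, and peaks were called with MACS2 2.2.7.1. The caller's options, its control and the treatment of reads from repeated sequence are not given in the sources used here. The deposited fold enrichment of a peak is a ratio of pileup to local background, and the authors gave its p-value and q-value as −log10, with the lowest −log10 q of each list just above 2. Fold enrichment depends on depth and background, so that it was compared between lists as a rank only.

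The peak names of the Jun and JunD lists give the line only, so their target was taken from what the deposited lists are called. Genes and starts came from GENCODE release 44, and promoter sequences from RefSeq. Overlaps of at least 1 bp within 1 kb of a start were counted in Python 3.11.15 with NumPy 2.4.6 and SciPy 1.17.1, plots were made in Matplotlib 3.10.9, and sequence was read by pysam 0.24.0 and samtools 1.23.1. Counts on 4 of 4 simulated lists equalled those of bedtools 2.31.1. Symbols whose suffix ends in a number (RPS4Y1, RPL7L1) were included. The genes and lists were chosen with earlier results of these data known. Named genes were those without H3K4me3, the 2 or 3 highest folds per list, the paralog pairs, the stalk and disease genes, genes bound by all Jun proteins in both lines, and any B2B JunB or JunD gene. Every other gene named was chosen after its values were seen. So were the solved local background, the body cover at matched gene length and the intervals at equal list length. No fit or p-value was computed, and no filter on low values was used. The 4 input samples were not analysed here. Values of 2 of the 87 genes and 1 motif site are not reported singly here, and the counts include them.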

Additional observations from a re-analysis of the deposited data

How the results depend on the processing

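No paired analysis was possible because the authors merged the replicates of each group before peaks were called, and for the same reason no replicate could be left out. Of 297 alternative values, 277 stayed within the 95% interval of the value reported and 20 moved outside it. A reversal could be recorded only for the differences between lines of JunB, Jun and JunD, whose intervals exclude 0, and 0 of these reversed. With the paralogs left out, or on chromosomes 1 to 12, pol II, H3K4me3 and Med1 in both lines and H3K27ac in B2B rose to 100%. H3K27ac in B2B was also at 100% with lists of equal length, which kept the 48 genes on chromosomes 1 to 12 only, and these were at 100% with the whole list. With lists of equal length JunB in A549 fell to 9.2% and its difference between lines to 4.6 points. B2B JunD fell to 0% with canonical starts only and on chromosomes 1 to 12, since its single gene is RPL3. A TOP tract within 20 bp of the start gave 90%. Counts of few genes, pooled lists and an unknown read number limit every comparison, and a missing peak is not evidence that a protein was absent at this depth.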

Other observations

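The genome also holds many processed copies of ribosomal protein genes. Of 1588 annotated pseudogenes named after the genes described here, a B2B pol II peak lay over the body of 11 (0.693%) and a B2B H3K4me3 peak over 31 (1.95%). In A549 the H3K4me3 peaks lay over 75 (4.72%), and pol II peaks over 49 of the 1428 covered (3.43%). Of the copies over 5 kb from any protein-coding start, 48 of 1332 had an A549 H3K4me3 peak (3.6%) and 16 a B2B one (1.2%). Jun-family peaks lay over at most 16 of the 1588 copies, the number for B2B Jun.

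RACK1, which encodes a protein of the small subunit that the symbol rule does not take in, lacked pol II, H3K4me3, H3K27ac and Med1 promoter peaks in A549. In B2B it had all of these except Med1. Jun was called at RACK1 in both lines and JunD in A549. Of the list of 17 TOP genes that includes RACK1, 16 had pol II and H3K4me3 peaks in A549, and RACK1 was the exception. Whether its promoter was inactive in A549 or the lists miss peaks there was not tested.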
